A study of Rattus norvegicus with 9 samples.

Results

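The genes described here are the integrins and the proteins of focal adhesions, the sites where a cell holds its matrix, in rat aortic smooth muscle cells (RASMC) whose Na+,K+-ATPase had been stopped in 2 ways. The list holds 41 genes: integrin subunits, kinases and scaffolds, linkers to actin, signalling genes and matrix ligands. They were chosen by function, but with earlier results of these data known. The rule uses measured signal only to choose among several probe sets of a gene. Of these, 31 had a probe set on the Affymetrix Rat Gene 1.0 ST array, 1 each, among 27342 probe sets and 14324 genes with a single symbol. The other 10 (Itga3, Itga8, Itga9, Itgav, Itgb3, Tln2, Lims1, Tns3, Lamb1 and Tnc) had no probe set under their symbol in the annotation used here and were not analysed.

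Each of 9 arrays measured RNA from purchased RASMC of low passage, quiesced for 24 hr in medium with 0.2% serum and washed in K+-free medium. The cells then spent 6 hr in K+-free DMEM (3 arrays), in DMEM with 3 mM ouabain (3 arrays) or in control DMEM (3 arrays). No animal treatment or genetic change was involved. K+-free medium deprives the Na+,K+-ATPase of the K+ it carries inward, and ouabain is a cardiac glycoside that binds the pump, so the comparison asks which genes respond when the pump is stopped by either route. The methods describe independent experiments, each with its control and treatments run side by side. The labels do not tie an array to an experiment, so the main model did not pair arrays. Its p-values measure the spread between these arrays. Values are log2 signals, on which 1 unit is a doubling.

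Integrins are pairs of an alpha and a beta chain that cross the plasma membrane. Outside the cell they bind collagen, laminin or fibronectin, and inside it talin and kindlin bind the beta chain and switch the pair on. Talin, vinculin, alpha-actinin and filamin then tie the receptor to actin, while focal adhesion kinase, Src, paxillin and p130Cas pass signals onward. RhoA signalling sets the contractile force that pulls on the adhesions. In the arterial wall these links carry tension between smooth muscle and matrix.

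Of 7 smooth muscle markers measured, 6 lay above the array median, with Tagln at 13.50, Cald1 at 12.56 and Cnn1 at 12.08 averaged over the arrays, while Des, at 5.77, lay under it. The mean level of these markers was 10.00 to 10.03 in K+-free medium, 9.88 to 9.98 in ouabain and 10.37 to 10.42 in control. Of the 7, 3 fell in K+-free medium and 5 in ouabain, and none rose. The deepest falls were those of Lmod1 (-1.48 in K+-free medium and -1.61 in ouabain) and Myh11 (-0.62 and -0.69). Over all 14324 genes, 17.8% rose and 24.0% fell in K+-free medium, and 17.5% rose and 22.7% fell in ouabain. Of the markers of other cells, 1 of 6 endothelial, 2 of 8 macrophage and 3 of 7 fibroblast genes lay above the array median, and Ptprc (5.65) and Adgre1 (5.68) did not. Of the macrophage markers 3 rose in K+-free medium and 4 in ouabain, among them Cd68 (0.94 and 1.29) and Cd14 (0.43 and 1.27), both above the array median. Of the fibroblast markers 3 and 1 rose, among them Pdgfra in K+-free medium (1.2998), and of the endothelial markers 1 and 2 rose. Mean levels of the macrophage list were 6.32 to 6.39 in K+-free medium, 6.48 to 6.51 in ouabain and 5.97 to 6.04 in control. Those of the endothelial list were 6.19 to 6.26, 6.16 to 6.22 and 5.99 to 6.08 in the same order of conditions, and those of the fibroblast list 7.91 to 7.94, 7.65 to 7.76 and 7.52 to 7.61. The part of these shifts in the results below was not tested, and in a bulk sample fewer cells of a type and less RNA per cell cannot be told apart.

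Most of the focal adhesion genes that changed were lower after the pump was stopped. Tln1 (talin) fell to 42.5% of control in K+-free medium and 38.6% in ouabain, and Ilk (integrin-linked kinase) fell to 44.5% and 58.4%. Bcar1, which encodes the scaffold p130Cas, rose to 199.6% and 170.3% of control, and Pxn (paxillin) rose 1.48-fold and 1.29-fold. Rhob, which encodes a short-lived protein of the cell's stress response, went opposite ways: it rose 2.69-fold in K+-free medium and fell to 71.6% of control in ouabain.

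The promoters of Rhob, Tln1 and Ilk are shown because these genes carry the contrary change and the deepest falls in K+-free medium. In ouabain Itga4 (-0.88) fell further than Ilk (-0.78). Each is the 250 bases before the RefSeq start site in build GRCr8, written 5′ to 3′ on the strand of the gene. Capitals mark the CCAAT box in Rhob and Tln1 and an NF-kB type site in Ilk.
Rhob: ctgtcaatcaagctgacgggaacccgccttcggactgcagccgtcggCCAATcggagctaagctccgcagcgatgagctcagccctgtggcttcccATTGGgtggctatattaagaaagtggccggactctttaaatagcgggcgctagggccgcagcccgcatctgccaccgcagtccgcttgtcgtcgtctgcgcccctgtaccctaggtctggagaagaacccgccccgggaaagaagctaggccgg
Tln1: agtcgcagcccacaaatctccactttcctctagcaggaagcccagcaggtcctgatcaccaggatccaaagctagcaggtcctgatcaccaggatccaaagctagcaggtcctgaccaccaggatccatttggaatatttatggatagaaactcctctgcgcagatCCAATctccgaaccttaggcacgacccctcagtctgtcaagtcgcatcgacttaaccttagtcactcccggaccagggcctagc
Ilk: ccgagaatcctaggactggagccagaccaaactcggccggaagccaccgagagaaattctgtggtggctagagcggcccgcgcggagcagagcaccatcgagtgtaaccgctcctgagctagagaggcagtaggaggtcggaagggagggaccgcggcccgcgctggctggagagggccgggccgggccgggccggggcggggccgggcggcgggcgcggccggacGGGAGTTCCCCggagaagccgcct
The Rhob window lies at chr6:37085205-37085454 on the minus strand, that of Tln1 at chr5:62613688-62613937 on the minus strand, and that of Ilk at chr1:169500471-169500720 on the plus strand. Counted from the start site, Rhob held CCAAT at positions -203 to -199 and again, as its reverse complement ATTGG, at -154 to -150, and Tln1 held it at -84 to -80. Read on both strands, CCAAT stood in 34.02% of all 33469 such windows, and the NF-kB type site in 3.541%. The GC box (GGGCGG, in 30.47% of all windows) occurred in Rhob and Ilk and overlapped no marked motif. Among the 36 windows listed for 32 of the 41 genes, 10 held CCAAT, 24 the GC box, 7 the TEAD motif GGAATG (12.06% of all windows), 3 the NF-kB type site and 2 the E-box CACGTG (5.593%). None held the AP-1 motif TGANTCA (6.34%), the CRE core TGACGTCA (1.587%) or a CArG box (1.497%). These are matches of letters in a short window and no measure of binding.

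Over all 31 genes, 4 rose and 13 fell in K+-free medium, where 16.1% of all probe sets rose and 17.9% fell. In ouabain 2 rose and 16 fell, where 15.8% of all probe sets rose and 16.8% fell. A gene was counted at a limma adjusted p under 0.05 and a change above 1.2-fold. As shares of the 31, 12.9% rose and 41.9% fell in K+-free medium, and 6.45% rose and 51.6% fell in ouabain. The median change of the genes was -0.19 in K+-free medium and -0.27 in ouabain, beside 0.06 and 0.07 over all probe sets. Most of these genes gave bright signals, and the share of genes called differed with brightness. Over all 14324 genes 17.8% rose and 24.0% fell in K+-free medium, and 17.5% rose and 22.7% fell in ouabain. Among the 4807 genes with a mean signal above 9, the first of 2 limits chosen after values were seen, 27.8% rose and 29.9% fell in K+-free medium, and 4 and 12 of the 27 adhesion genes there did so. In ouabain 27.5% of those 4807 genes rose and 27.1% fell, and 2 and 15 of the 27 did so. Among the 1548 genes above 11, 25.6% rose and 18.2% fell in K+-free medium, and 1 and 6 of the 16 adhesion genes there did so. In ouabain 26.0% of the 1548 rose and 15.9% fell, and 0 and 8 of the 16 did so.

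**Figure D1:**
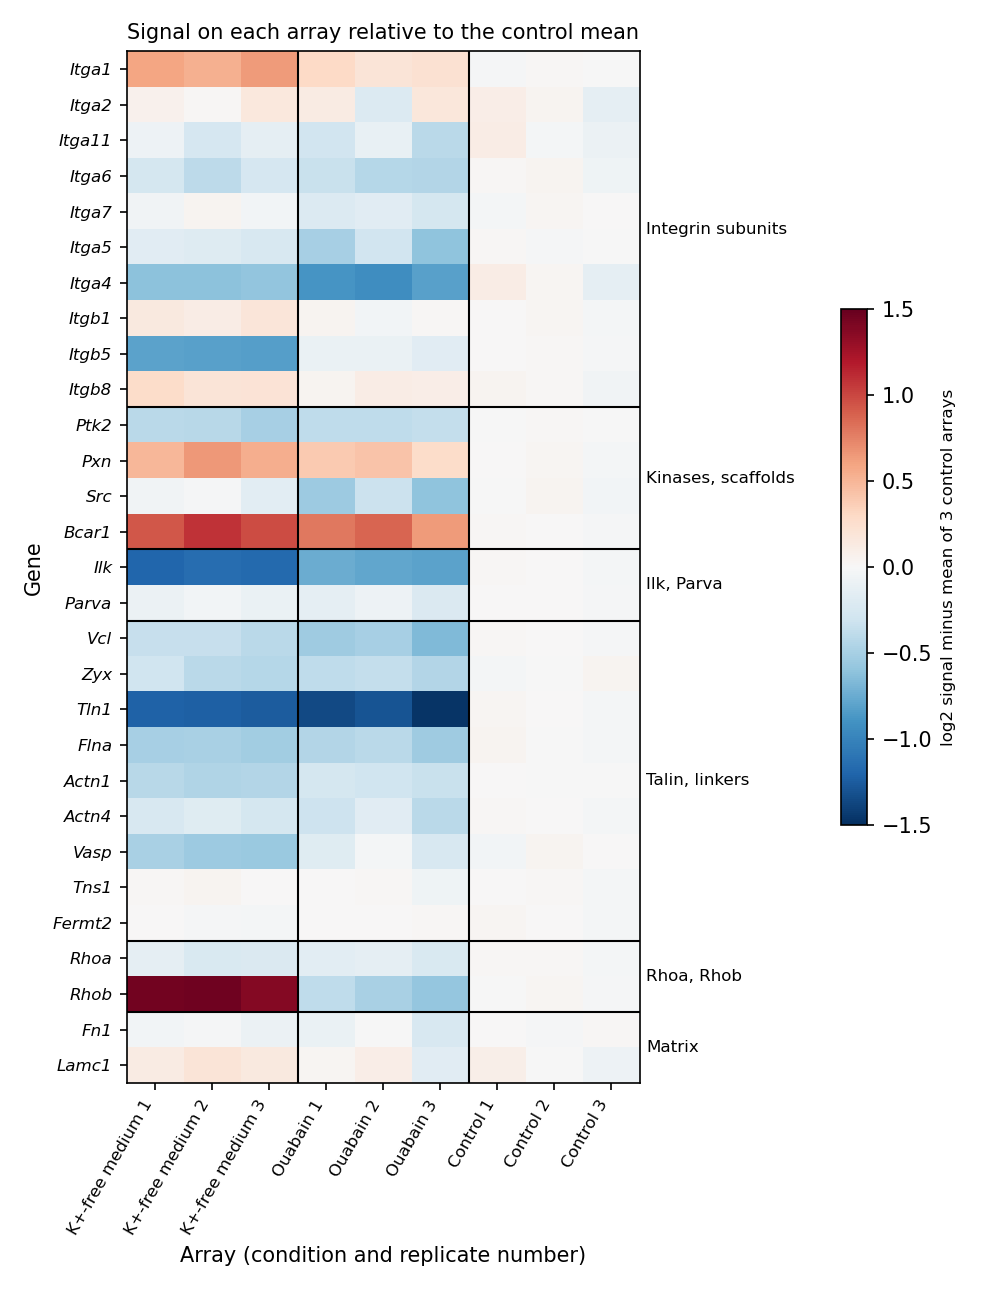
Signals of 29 integrin and focal adhesion genes on each of the 9 arrays, drawn as the log2 difference of each array from the mean of the 3 control arrays, with genes grouped by role. Tln1 and Ilk were below control on all 6 treated arrays, Bcar1 and Pxn above it, and Rhob was above control on the 3 K+-free arrays and below it on the 3 ouabain arrays.

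The integrin subunits differed in direction from one another. Of 10 subunits measured, 1 rose and 3 fell in K+-free medium, and none rose and 4 fell in ouabain. Of all probe sets 16.1% rose and 17.9% fell in K+-free medium, and 15.8% and 16.8% in ouabain. Of all 14324 genes 17.8% rose and 24.0% fell in K+-free medium, and 17.5% and 22.7% in ouabain. Of the 4807 genes above a mean signal of 9, 27.8% rose and 29.9% fell in K+-free medium, and 27.5% and 27.1% in ouabain. The counts of falls were near these shares. The collagen receptor chain Itga1 had signals of 12.14, 12.08 and 12.19 in K+-free medium, 11.85, 11.74 and 11.78 in ouabain, and 11.53, 11.56 and 11.53 in control. The 3 conditions did not overlap, with K+-free medium highest and control lowest. Itga1 rose by 0.59 ± 0.052 (SE, n = 3 arrays each, adjusted p = 2.68e-06) in K+-free medium, while the 0.24 in ouabain (adjusted p = 0.00277) was under the 1.2-fold limit. Of the other collagen receptor chains, Itga2 had a signal under the array median and did not pass the test (0.08 in K+-free medium and 0.03 in ouabain). Itga11 fell by 0.27 in ouabain (adjusted p = 0.0246), and its -0.15 in K+-free medium did not pass. The Itga11 change in ouabain was called in 17 of 25 settings, and was -0.13 (adjusted p = 0.199) after repeated quantile normalization, within a range of -0.42 to -0.13 over the settings.

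Itga4, whose chain binds fibronectin and VCAM1, had the largest fall of the alpha subunits. Its signals were 7.32, 7.32 and 7.34 in K+-free medium, 7.04, 7.00 and 7.11 in ouabain, and 8.05, 7.96 and 7.79 in control. Both treatments lay below every control array, and ouabain lay below K+-free medium. The change was -0.61 with K+-free medium (adjusted p = 1.64e-05) and -0.88 with ouabain (adjusted p = 9.08e-07), each with an SE of 0.066.

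Itga5, the fibronectin receptor chain, had signals of 11.42, 11.40 and 11.35 in K+-free medium, 11.10, 11.30 and 10.99 in ouabain, and 11.61, 11.57 and 11.59 in control. All treated arrays lay below the controls. It fell by 0.46 ± 0.072 in ouabain (adjusted p = 0.000298), whereas the -0.20 in K+-free medium (adjusted p = 0.042) was within the fold limit. The laminin receptor chain Itga6 fell with both treatments (-0.31 in K+-free medium and -0.40 in ouabain). Itga7, a muscle laminin receptor chain, changed by -0.02 in K+-free medium (adjusted p = 0.831) and did not pass. Its -0.21 in ouabain (adjusted p = 0.00548) was within the fold limit.

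The beta subunits went apart from one another. Itgb5, which pairs with the alpha V chain to bind vitronectin, had signals of 10.47, 10.46 and 10.45 in K+-free medium, 11.17, 11.18 and 11.10 in ouabain, and 11.28, 11.29 and 11.25 in control. The K+-free arrays lay well below all the others, and the ouabain arrays lay just under the controls. Itgb5 fell by 0.82 ± 0.047 (adjusted p = 9.37e-08) in K+-free medium, and its -0.12 in ouabain did not pass (adjusted p = 0.0516). Itgb1, the common partner of the collagen, laminin and fibronectin receptor chains, changed by 0.15 (95% interval 0.04 to 0.26) in K+-free medium and 0.01 (-0.10 to 0.12) in ouabain, under the fold limit in both. Itgb8 changed by 0.22 in K+-free medium (adjusted p = 0.00421), under the fold limit, and by 0.09 in ouabain (adjusted p = 0.198). After repeated quantile normalization its change in K+-free medium was 0.33 and was called.

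The 4 kinases and scaffolds of the adhesion plaque split. In K+-free medium Bcar1 and Pxn rose and Ptk2 fell, and in ouabain Bcar1 and Pxn rose and Ptk2 and Src fell. Bcar1 signals were 10.39, 10.55 and 10.44 in K+-free medium, 10.25, 10.34 and 10.10 in ouabain, and 9.48, 9.46 and 9.45 in control. Every treated array was above every control array, and the gain was 1.00 in K+-free medium (adjusted p = 3.38e-07) and 0.77 in ouabain (adjusted p = 3.13e-06), each with an SE of 0.068. Pxn signals were 10.84, 10.998 and 10.89 in K+-free medium, 10.73, 10.77 and 10.63 in ouabain, and 10.35, 10.37 and 10.32 in control. They did not overlap with control either, and rose by 0.56 (adjusted p = 1.16e-05) and 0.37 (adjusted p = 0.000398). With arrays centred on reference genes or on B2m, the Pxn change in ouabain was 0.24 or 0.21, under the fold limit.

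Ptk2, focal adhesion kinase itself, fell with both, by a change of -0.44 (adjusted p = 1.43e-05) in K+-free medium and -0.37 (adjusted p = 5.98e-05) in ouabain, each with an SE of 0.047. Src, the tyrosine kinase that it recruits, had signals of 9.77, 9.80 and 9.66 in K+-free medium, 9.27, 9.50 and 9.22 in ouabain, and 9.82, 9.86 and 9.78 in control. K+-free and control arrays overlapped, and the ouabain arrays lay below both. Src fell by 0.49 ± 0.075 in ouabain (adjusted p = 0.000266), and the -0.08 in K+-free medium did not pass (adjusted p = 0.441, 95% interval -0.24 to 0.09).

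Integrin-linked kinase and parvin belong to 1 complex that binds the integrin beta tail, and of the 2 genes measured only the kinase was called. Ilk signals were 11.15, 11.19 and 11.16 in K+-free medium, 11.59, 11.56 and 11.53 in ouabain, and 12.35, 12.34 and 12.31 in control. The 3 conditions were separated, with K+-free medium lowest. The change of Ilk was -1.17 with K+-free medium (adjusted p = 6.91e-09) and -0.78 with ouabain (adjusted p = 1.53e-07), each with an SE of 0.046. Parva changed by -0.08 and -0.14, within the fold limit.

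Of the 9 genes measured for talin, kindlin and the linkers to actin, none rose. In K+-free medium 6 fell (Tln1, Vasp, Flna, Actn1, Zyx and Vcl), and in ouabain 6 fell (Tln1, Vcl, Flna, Zyx, Actn1 and Actn4). All 9 had mean signals above 9. Among the 4807 genes above this limit, 27.8% rose and 29.9% fell in K+-free medium, and 27.5% rose and 27.1% fell in ouabain. Tln1 signals were 10.72, 10.71 and 10.69 in K+-free medium, 10.58, 10.65 and 10.47 in ouabain, and 11.97, 11.94 and 11.91 in control. All 6 treated arrays lay more than 1 log2 unit below the controls. The change was -1.23 (adjusted p = 1.71e-08) in K+-free medium and -1.37 (adjusted p = 1.10e-08) in ouabain, each with an SE of 0.056.

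Vcl (vinculin, which reinforces the link from talin to actin) had signals of 12.18, 12.18 and 12.12 in K+-free medium, 11.99, 12.03 and 11.86 in ouabain, and 12.54, 12.53 and 12.51 in control. It did not overlap with control and fell in K+-free medium (-0.37, adjusted p = 0.000223) and in ouabain (-0.57, adjusted p = 7.13e-06). Vasp, which promotes growth of actin filaments at adhesions, had signals of 9.29, 9.23 and 9.23 in K+-free medium, 9.59, 9.74 and 9.54 in ouabain, and 9.74, 9.81 and 9.78 in control. The K+-free arrays lay below all others, while the highest ouabain array reached the lowest control array. Vasp fell by 0.53 ± 0.061 (adjusted p = 2.48e-05) in K+-free medium, and its -0.15 in ouabain did not pass (adjusted p = 0.0619).

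Flna (filamin A) changed by -0.50 in K+-free medium and -0.46 in ouabain, and Actn1 (alpha-actinin 1) by -0.44 and -0.30, all of them called. Zyx, a LIM-domain protein of mature adhesions, fell with both (-0.38 and -0.39). Actn4 fell by 0.29 in ouabain, and its -0.23 in K+-free medium was within the fold limit. Fermt2 (kindlin-2, the partner of talin in integrin activation) changed by -0.01 and 0.01, and Tns1 (tensin 1) by 0.02 and -0.01, with 95% intervals inside -0.13 to 0.13 for both genes and both treatments.

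**Figure D2:**
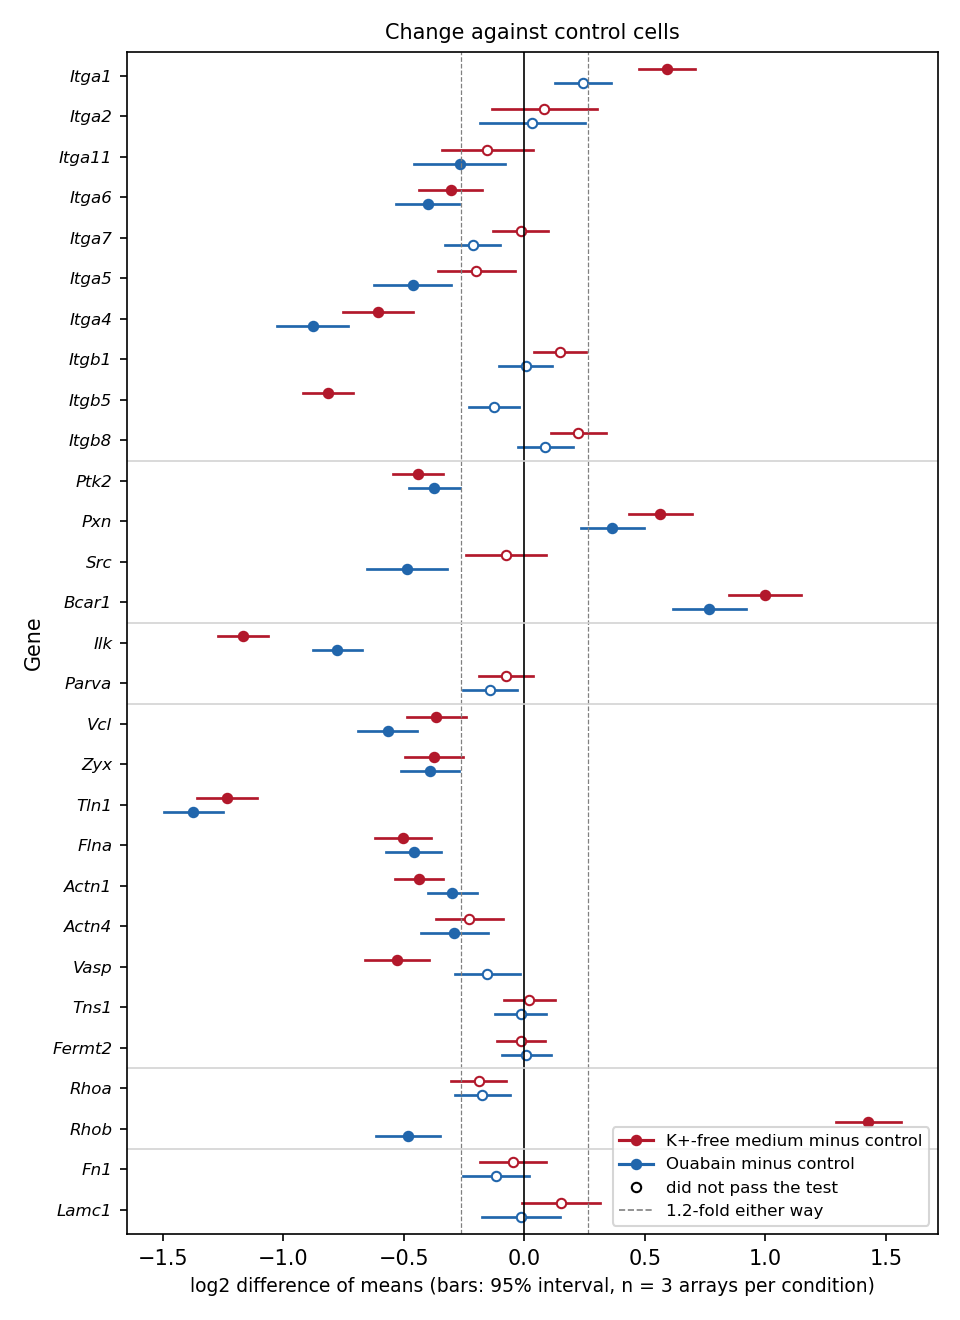
Log2 change from control of 29 of the genes in K+-free medium and in ouabain, with 95% intervals (n = 3 arrays per condition); filled points passed the test and open points did not, and dashed lines mark 1.2-fold. The 9 linker genes lie at or below 0.02, Bcar1 reaches 1.00 and 0.77, and Rhob lies at 1.43 in K+-free medium and -0.48 in ouabain.

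Rhob was called with both treatments, while Rhoa, whose product drives contraction, changed by -0.19 in K+-free medium and -0.17 in ouabain, under the fold limit. Rhob signals were 11.79, 11.80 and 11.71 in K+-free medium, 9.96, 9.85 and 9.75 in ouabain, and 10.33, 10.37 and 10.32 in control. Control lay between the treatments with no overlap on either side. The change was 1.43 (adjusted p = 1.10e-08) in K+-free medium and -0.48 (adjusted p = 5.39e-05) in ouabain, each with an SE of 0.060. Rhob was the 1 gene of the 31 called in opposite directions.

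**Figure D3:**
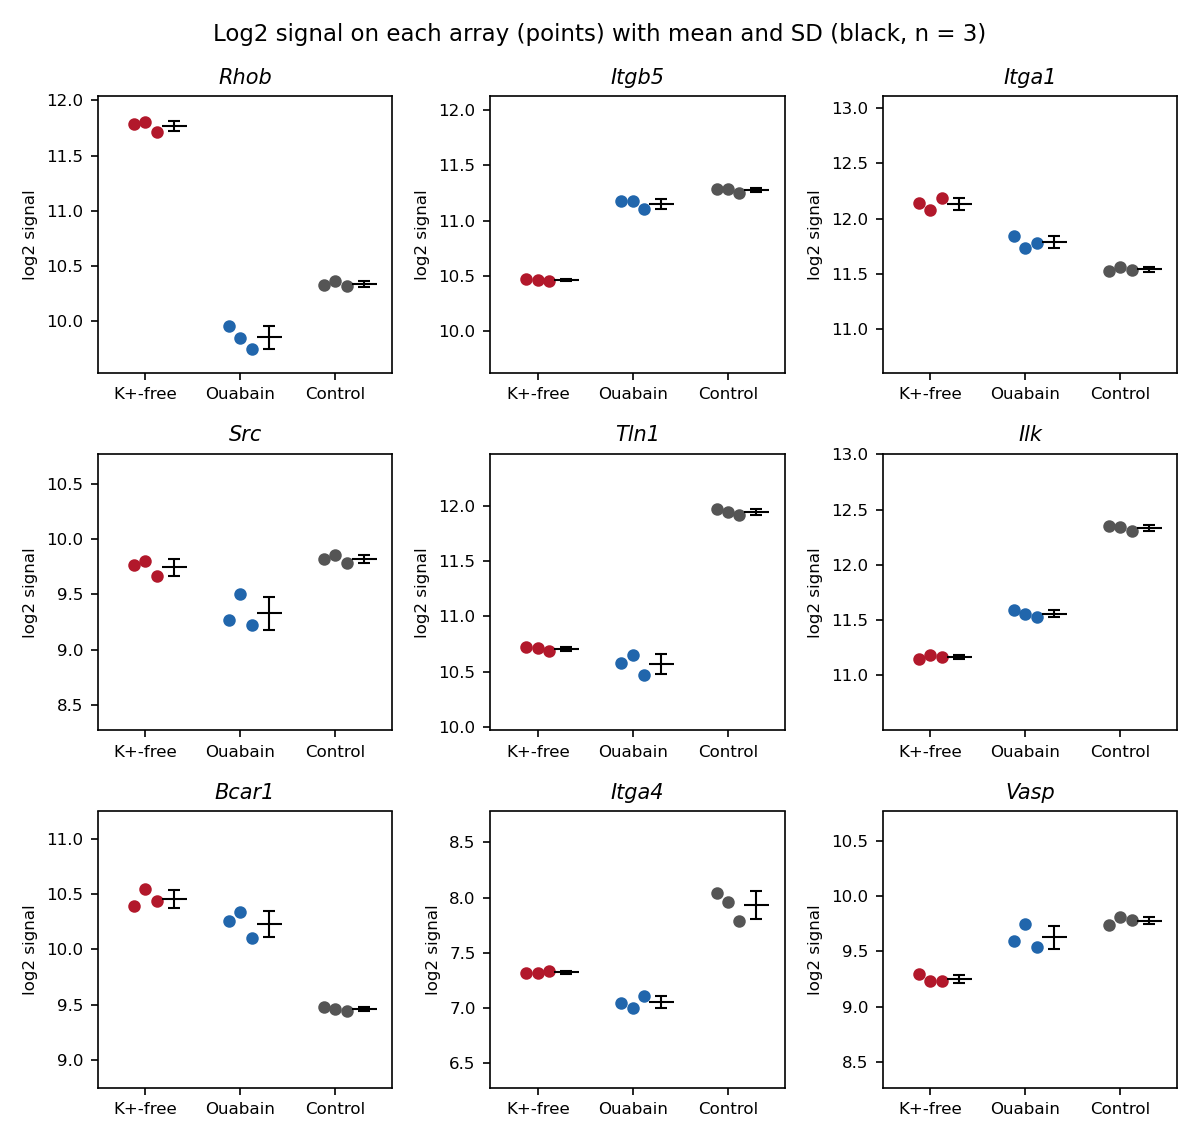
Log2 signal on every array of genes given by array in the text, with K+-free medium, ouabain and control side by side; points are arrays, and black marks give the mean and SD of 3. Rhob lies at 11.71 to 11.80 in K+-free medium and 9.75 to 9.96 in ouabain, on either side of 10.32 to 10.37 in control, and Itgb5 stands at 10.45 to 10.47 in K+-free medium, below 11.10 to 11.18 in ouabain and 11.25 to 11.29 in control.

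The matrix ligands measured were not called. Fn1 (fibronectin) changed by -0.05 (95% interval -0.18 to 0.09) in K+-free medium and -0.12 (-0.26 to 0.02) in ouabain, and Lamc1 (the laminin gamma 1 chain) by 0.15 (-0.01 to 0.31) and -0.01 (-0.17 to 0.15). Altogether 10 of the 31 genes were called under neither treatment: Fermt2, Fn1, Itga2, Itga7, Itgb1, Itgb8, Lamc1, Parva, Rhoa and Tns1. The share called under neither was not computed over all genes. Taken singly, 14 of the 31 were not called in K+-free medium and 13 in ouabain, beside 8346 and 8565 of all 14324 genes.

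Set directly against ouabain, K+-free medium gave higher signals for 4 genes (Rhob, Src, Itga1 and Itga4) and lower signals for 4, among them Itgb5, Ilk and Vasp, 12.9% of the 31 in each direction, where 8.45% of all probe sets were higher and 7.97% lower. Among the 4807 genes with a mean signal above 9, 16.3% were higher and 16.9% lower, and 3 and 4 of the 27 adhesion genes there were. Rhob was 3.76-fold higher in K+-free medium (1.91 ± 0.060, adjusted p = 6.63e-09), and its difference ranked 37 by size among 14324 genes. The difference was -0.69 for Itgb5 (adjusted p = 2.04e-06), -0.39 for Ilk (adjusted p = 0.000108) and -0.38 for Vasp (adjusted p = 0.000946). Src was higher by 0.41 (adjusted p = 0.00201), Itga1 by 0.35 (adjusted p = 0.000545) and Itga4 by 0.27 (adjusted p = 0.0122).

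For the other 23 genes this test was not passed. Tln1 differed by 0.14 (95% interval 0.02 to 0.27, adjusted p = 0.109). Bcar1 (0.23), Vcl (0.20), Pxn (0.20) and Itga5 (0.26) had adjusted p-values of 0.0325, 0.0226, 0.0332 and 0.0228 but stayed under the fold limit. So did Itga7 (0.20, adjusted p = 0.0157). The Itga4 difference fell under this limit without ouabain replicate 2 (0.25). Without the same array Itga5 (0.35, adjusted p = 0.00132) and Bcar1 (0.28, adjusted p = 0.013) were called as higher in K+-free medium.

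**Figure D4:**
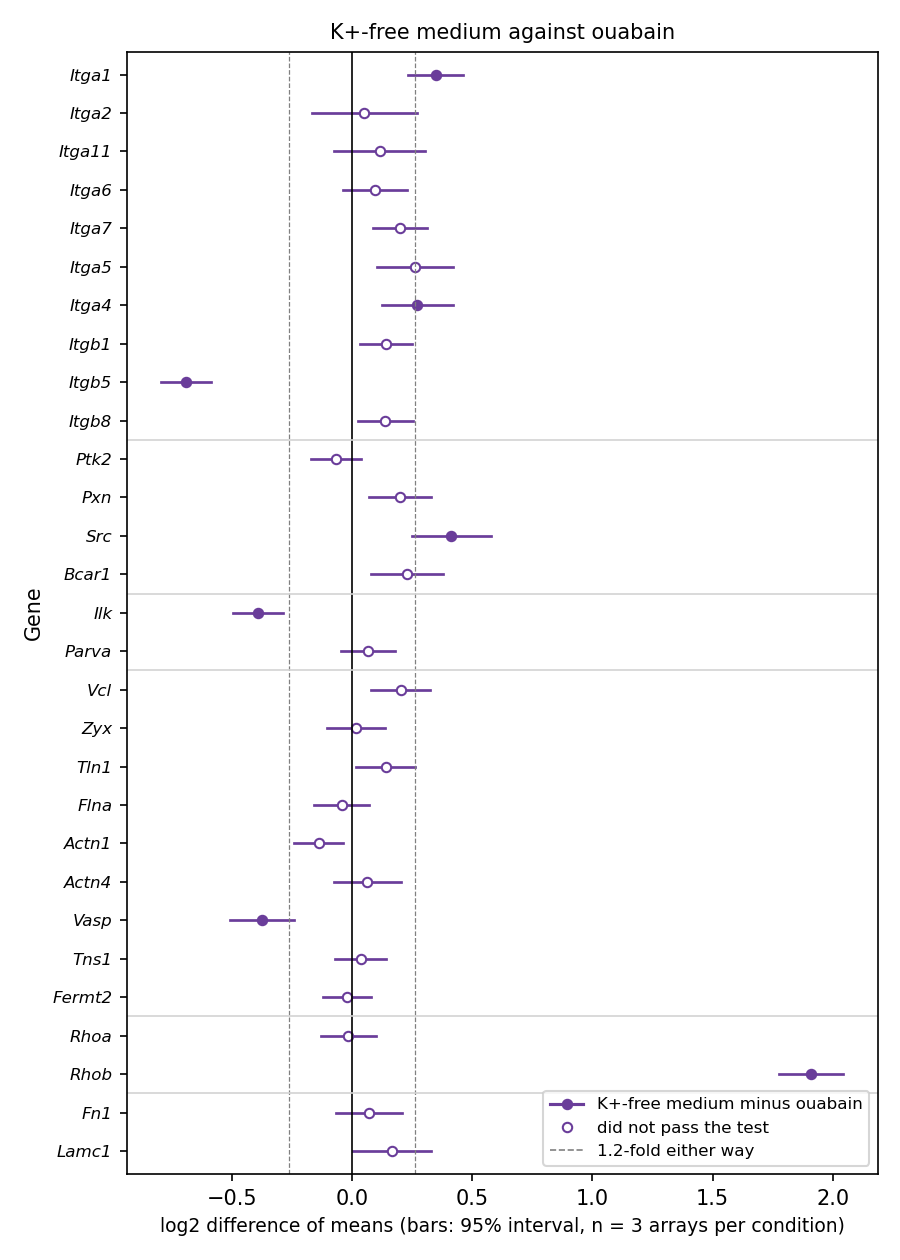
Log2 difference between K+-free medium and ouabain for 29 of the genes, with 95% intervals (n = 3 arrays per condition); filled points passed the test, open points did not, and dashed lines mark 1.2-fold. Rhob stands at 1.91, Itgb5 at -0.69, and 22 genes have open points.

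The spread between replicates was not the same in the 3 conditions. For the 31 genes the median SD was 0.0422 in K+-free medium, 0.0700 in ouabain and 0.0278 in control, beside 0.0737, 0.0813 and 0.0621 over all probe sets. Within ouabain, replicate 3 was the lowest array for 22 of the 31 genes and replicate 2 the highest for 19. This order was not counted over all probe sets, and genes on the same array are not independent. Without ouabain replicate 3 the Actn4 fall in ouabain (-0.24) and the Itga11 fall were no longer called. Itga11 was also lost without ouabain replicate 1 or control replicate 1. The Itga6 fall in K+-free medium was lost without K+-free replicate 2 (-0.26). The Itga1 rise in ouabain was called without ouabain replicate 2 (0.27).

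Further genes of the same pathways, from lists that add 133 genes of which 101 were measured, gave 19 that rose and 29 that fell in K+-free medium and 18 and 28 in ouabain, with medians of 0.06 and -0.02. As shares, 18.8% rose and 28.7% fell in K+-free medium, and 17.8% rose and 27.7% fell in ouabain, beside 17.8% and 24.0%, and 17.5% and 22.7%, of all genes. Among adaptors of the adhesion plaque 4 of 26 rose and 14 fell in K+-free medium, and 4 rose and 13 fell in ouabain. Tgfb1i1, which encodes the paxillin relative Hic-5, fell with both (-1.34 in K+-free medium and -1.52 in ouabain, adjusted p = 1.75e-08 and 1.02e-08). Sorbs2, a vinculin-binding adaptor, changed by -1.35 and -1.34, Lims2 (PINCH-2, a partner of integrin-linked kinase) by -1.06 and -1.12, and Sharpin, an inhibitor of integrin activation, by -1.496 and -1.06, and all were called with both.

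Of 26 adhesion signalling genes, 7 rose and 8 fell in K+-free medium (26.9% and 30.8%, beside 17.8% and 24.0% of all genes and 27.8% and 29.9% of those above 9), and 7 rose and 6 fell in ouabain (26.9% and 23.1%, beside 17.5% and 22.7% of all genes and 27.5% and 27.1% of those above 9). Csk, the kinase that holds Src inactive, fell with both (-1.51 and -1.37), as did Ptk2b, the relative of focal adhesion kinase (-1.01 and -1.31), and the phosphatase gene Ptpra (-0.74 and -0.61), while the adaptor gene Crkl rose by 0.63 and 0.55.

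Of 8 further integrin subunits, Itgb6 rose in K+-free medium (0.32), and Itga10 (0.28) and Itgal (0.27) rose in ouabain, all with mean signals (5.91 to 6.10) under the array median. Of 21 further matrix ligands, 2 rose and 1 fell in K+-free medium (9.52% and 4.76%, beside 17.8% and 24.0% of all genes). In ouabain 1 rose and 1 fell (4.76% each, beside 17.5% and 22.7% of all genes). Ccn2, a matricellular protein gene, fell with both (-0.84 and -0.86), and its relative Ccn1 rose by 0.33 and 0.29. Between the treatments, K+-free medium gave higher signals for 14 of the 101 genes and lower signals for 7. These were 13.9% and 6.93%, beside 10.9% and 10.7% of all genes. Among them were Nedd9, a relative of Bcar1 (0.59), the adaptor gene Nck2 (-0.58) and Tes, a zyxin partner (-0.56).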

How the data were processed

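The deposited values were log2 signals per probe set, made by the authors with RMA. The labels name Partek as well, and no version. The methods name other software too, and the steps between scanner and table are not given in full in the sources used here. RMA sets arrays to a common distribution, so changes are relative to the other genes on the array (array medians 6.76 to 6.80). Replicate arrays correlated at 0.996 or more. Arrays hold no read depth, so their number limits the precision.

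A linear model with a mean for each condition was fitted to the 9 arrays with limma 3.58.1 (R 4.3.3), with variances moderated toward a prior of 4.59 degrees of freedom. Tables were read with data.table, version 1.17.8. Benjamini-Hochberg adjustment ran over 27342 probe sets of each contrast, 2-sided, and calls needed more than 1.2-fold at an adjusted p under 0.05. An exact permutation test of 3 arrays against 3 cannot go below p = 0.1 and was not used. The script was tested on simulated data. Probe sets were named from the platform annotation (15097 with 1 symbol, 323 with several, 11922 with none), and cross-hybridization of related genes was not checked. Members and lists were chosen with earlier results of these data known. Every array is given for genes among the 10 of largest change in any contrast and for opposite calls, and up to 4 called genes are named per further list. Promoters came from RefSeq (GRCr8), and figures from matplotlib 3.10.9 in Python 3.11.15. Alternatives covered scaling, filters, the fold limit, other tests, replicate blocks and left-out arrays. For 2 of the 31 genes and 1 further list the counts are included, but their own results are not reported here.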

Additional observations from a re-analysis of the deposited data

Results flagged for a closer look

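For 7 of 29 genes the effect of K+-free medium differed from that of ouabain in limma's direct test of one treatment against the other. In the same test 8.45% of all probe sets were higher and 7.97% lower. Among the 4807 genes with a mean signal above 9, 16.3% were higher and 16.9% lower. The difference, K+-free medium minus ouabain on the log2 scale, was 1.91 for Rhob, 0.41 for Src, 0.35 for Itga1, 0.27 for Itga4, -0.38 for Vasp, -0.39 for Ilk and -0.69 for Itgb5. Rhob was called in opposite directions against control. Groups of 3 arrays are too small for a test of single outlying arrays.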

How the results depend on the processing

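Over 24 alternatives for each of 93 gene changes, 2146 of 2232 values kept their direction and their side of the limit, 46 lost the call, 40 gained it and 0 reversed. Part of this agreement was fixed in advance. Changing only the test, the limit or the filter cannot alter a difference, nor can leaving out an array of the third condition. Averaging a gene's probe sets could change nothing, as no gene had several. With a fold limit of 1.5, 3 genes rose and 5 fell in K+-free medium, where 1578 and 2740 of all 27342 probe sets did. In ouabain 1 rose and 3 fell, where 1277 and 2647 probe sets did. The share of the genes that fell in ouabain was then near that of all probe sets. K+-free medium gave 1 higher and 1 lower gene against ouabain, where 647 probe sets were higher and 502 lower. Without a fold limit, 9 genes were higher in K+-free medium against ouabain. Centring on reference genes or on B2m left 1 gene that rose in ouabain, and all probe sets called there were then 28.8% or 25.8% higher calls, beside 48.5% as deposited. In K+-free medium those shares were 33.0% or 25.2%, beside 47.3%. The median of all probe sets moved to -0.06 or -0.08 in ouabain and to -0.03 or -0.10 in K+-free medium. Relative to it the genes' median was -0.25 in K+-free medium and -0.34 in ouabain. Centring could not change these values, because it shifts every gene on an array by the same amount. After repeated quantile normalization, which can change them, they were -0.19 and -0.22. The cause of these shifts was not tested.

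Leaving out 1 array gave 4 genes that rose and 12 to 13 that fell in K+-free medium, 2 to 3 and 14 to 16 in ouabain, and 4 to 5 higher and 3 to 4 lower between the treatments. By the methods' t-test, Src (adjusted p = 0.0781) no longer differed between the treatments and Itga11 was lost in ouabain (0.132). Deviations of same-numbered arrays correlated at -0.05 to 0.31 over 9 pairs, not all above 0.1, and those of other arrays at -0.28 to 0.16 over 18, so the numbers were not used as pairs. As a hint of shared runs from the data, 12 of 18 cases were closest to their own number. The replicate block gave the same counts, 4 up and 13 down in K+-free medium, 2 up and 16 down in ouabain, and 4 up and 4 down between them.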
